A study of Mus musculus with 8 samples.

Results

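Insulin signalling and glucose uptake were followed through 10 genes, Insr, Irs1, Irs2, Pik3r1, Akt2, Tbc1d4, Slc2a4, Slc2a1, Foxo1 and Pck1, in single nuclei of mouse visceral white adipose tissue. The genes were taken by symbol from the 56749 features of the deposited matrices, and each symbol named 1 feature. The 8 libraries, 1 mouse each, fell into 4 groups of 2. Mice of genotype p21+/mCherry were fed a standard diet (SD, called mCherry SD here) or a high fat diet (HFD, called mCherry HFD). Mice of genotype p21+/mCherry-Tert (Tert HFD) and p21+/mCherry-TertCi (TertCi HFD) received the high fat diet only, so neither has a standard-diet group. Tert is the catalytic subunit of telomerase, and the series' design text gives the p21 promoter as the driver of both inserts. Every mouse, controls included, carried 1 modified p21 allele, and ages, feeding times and what sets TertCi apart from Tert were not given in the sources used here. The labels name frozen whole tissue, whereas the design text names its stromal vascular fraction and a p21+/- control. Adipocyte-like nuclei were present in all 8 libraries, and none of their 10 defining markers was at 0 in any mouse.

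Insulin bound to its receptor leads to phosphorylation of adaptor proteins, which bring phosphoinositide 3-kinase (PI3K) to the membrane and activate the kinase AKT. In adipocytes AKT releases storage vesicles that carry the transporter GLUT4 to the cell surface, restrains lipolysis and keeps the transcription factor FOXO1 out of the nucleus. Adipose tissue is known for losing part of this response in obesity.

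In the libraries as deposited, totals lay between 23378488 and 139749876 unique molecular identifiers (UMIs, 1 per captured RNA molecule), and 30209 nuclei were kept. The libraries shared 0 to 16 nucleus barcodes in any pair. To look for a library deposited more than once, the counts of the 2 mice of a group were compared over genes; the chi-square was 135 times its degrees of freedom in Tert HFD and 16.6 to 35.8 times in the other groups, so no pair agreed within counting noise. Separate mice are bound to differ by more than that noise. Tert HFD rep136 stood apart, with a median of 1704 UMIs and 968 genes per nucleus against 3008 to 7253 UMIs and 1735 to 3092 genes in the other 7 libraries. Nuclei whose cluster showed markers of more than 1 cell type made up 16.2% to 55.7% of a library, most in mCherry SD, and were kept out of the cell classes. Tert, counted over all barcodes, read 3.52 and 3.98 CPM (UMIs scaled to a common total per library) in mCherry SD, 3.27 and 3.58 CPM in mCherry HFD, 2.66 and 2.01 CPM in Tert HFD and 2.76 and 2.48 CPM in TertCi HFD. It was not higher in the libraries labelled Tert or TertCi, and mCherry was counted 0 to 17 times per library, so the genotype labels could not be checked here.

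Promoter sequence was at hand for 8 of the 10 genes in the RefSeq table of build GRCm38.p6, as 12 entries; Insr and Slc2a4 were without an entry. The 4 genes on which the results below turn are shown, each as the 250 bases before the start of its first entry in the table, 5′ to 3′ on the strand of the gene, with matches to 5 searched motifs in capitals.
Pik3r1, chr13:101768218-101768467, minus strand: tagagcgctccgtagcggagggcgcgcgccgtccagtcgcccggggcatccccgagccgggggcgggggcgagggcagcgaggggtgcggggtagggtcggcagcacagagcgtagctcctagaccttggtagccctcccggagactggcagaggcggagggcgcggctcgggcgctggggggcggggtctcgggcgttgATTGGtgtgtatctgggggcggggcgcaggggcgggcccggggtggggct
Irs1, chr1:82291440-82291689, minus strand: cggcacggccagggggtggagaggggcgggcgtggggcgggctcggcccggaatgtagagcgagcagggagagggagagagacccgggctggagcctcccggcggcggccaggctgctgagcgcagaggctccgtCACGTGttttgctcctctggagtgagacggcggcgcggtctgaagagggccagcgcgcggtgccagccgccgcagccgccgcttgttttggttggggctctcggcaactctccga
Foxo1, chr3:52268087-52268336, plus strand: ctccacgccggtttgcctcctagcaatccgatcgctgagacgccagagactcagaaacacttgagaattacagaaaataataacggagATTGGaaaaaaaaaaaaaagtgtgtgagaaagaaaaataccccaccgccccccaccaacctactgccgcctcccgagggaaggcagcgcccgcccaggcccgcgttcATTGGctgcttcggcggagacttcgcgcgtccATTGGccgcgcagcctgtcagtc
Pck1, chr2:173152823-173153072, plus strand: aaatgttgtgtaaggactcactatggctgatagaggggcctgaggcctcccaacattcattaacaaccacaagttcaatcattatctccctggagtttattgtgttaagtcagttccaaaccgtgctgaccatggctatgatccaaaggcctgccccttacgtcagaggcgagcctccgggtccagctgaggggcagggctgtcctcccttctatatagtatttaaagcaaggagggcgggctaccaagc
The Irs1 window held the E-box CACGTG from base -115 to -110, counted from the start. The Foxo1 window held the CCAAT box 3 times on the reverse strand, and the Pik3r1 window shown held it once on the reverse strand from -50 to -46. Pik3r1 has a second entry in the table, chr13:101692631-101692880, in which no searched motif matched. No searched motif matched in the Pck1 window. Over all 32851 entries of the table, searched on both strands, 33.8% held CCAAT, 6.02% the E-box CACGTG, 7.02% the STAT motif TTCNNNGAA, 3.17% the forkhead motif GTAAACA and 0.0335% the direct repeat bound by PPAR and RXR. A match is a description of letters and not a binding site.

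The genes differed in how far they were confined to adipocyte-like nuclei. Levels are given as CPM over all UMIs of the class in a mouse, and as the median over mice with the lowest and highest mouse. Epithelial-like nuclei reached 20 in 2 mice only, 37 in mCherry SD rep146 and 330 in mCherry HFD rep128, and are left out of these class comparisons and of the plot by class; Pik3r1 read 150.2 to 843 CPM and Foxo1 95.5 to 189.9 CPM there. Pck1, the cytosolic phosphoenolpyruvate carboxykinase that supplies glycerol for fat storage, had a median of 312 CPM in adipocyte-like nuclei (80.8 to 531). Its medians elsewhere were 59.7 CPM in mural-like, 24.2 in endothelial-like, 11.6 in mesothelial-like, 9.81 in progenitor-like and 9.02 CPM in macrophage-like nuclei. RNA free in the suspension adds UMIs to every droplet, so an expected level was taken from barcodes of 50 to 500 UMIs, scaled by the adipocyte transcripts Adipoq, Plin1 and Cidec. For Pck1 the mean over mice was 89.9 CPM in mural-like, 20.8 in endothelial-like, 19.3 in mesothelial-like, 14.4 in progenitor-like and 16.1 CPM in macrophage-like nuclei, where free RNA gave an expected mean of 105, 15.1, 16.9, 14.3 and 16.2 CPM. Pck1 was above its expected level in 1 of 8, 5 of 7, 7 of 8, 7 of 8 and 3 of 8 mice in that order. Slc2a4, which encodes GLUT4, was sparse, with a median of 16.1 CPM in adipocyte-like nuclei (2.05 to 23.5) against 1.25 CPM in macrophage-like nuclei. Its mean in macrophage-like nuclei was 1.96 CPM where 1.35 CPM was expected, and it lay above the expected level in 8 of 8 mice. With free RNA taken from barcodes of 10 to 100 UMIs it did so in 7 of 8. These values rest on few counts, 16 UMIs over all mice in macrophage-like cluster 21 and 2 to 4 in each of the others.

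Irs1, the main insulin receptor adaptor of adipocytes, was shared with the stromal classes. Its median was 219 CPM in adipocyte-like nuclei (143 to 479), 212 in progenitor-like (121 to 244), 209.7 in mural-like (126 to 317) and 122 CPM in mesothelial-like nuclei (71.1 to 172). The first 3 of these overlapped between mice and cannot be put in order. The mural-like mean was 213 CPM, where free RNA gave an expected mean of 115 CPM. In progenitor-like nuclei the mean was 197 CPM, with 15.8 CPM expected. In macrophage-like and endothelial-like nuclei Irs1 had means of 20.7 and 15.1 CPM, with means of 17.9 and 16.8 CPM expected from free RNA, and lay above the expected level in 6 of 8 and 3 of 7 mice. Irs2, the second adaptor, had its highest median in adipocyte-like nuclei (90.5 CPM, 44.4 to 127), and was higher there than in progenitor-like and macrophage-like nuclei of the same mouse in 8 of 8 mice. Akt2, the AKT form tied to glucose uptake, stood at 101 CPM in adipocyte-like nuclei (89.0 to 116) and at 29.4 to 43.1 CPM in the other classes. The highest of these was mural-like, with a mean of 43.9 CPM where free RNA gave an expected mean of 38.8 CPM. Mural-like Akt2 lay above its expected level in 5 of 8 mice.

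Insr and Foxo1 lay above the free-RNA level in every class outside adipocytes and in every mouse. In mural-like nuclei their means were 324 and 311 CPM, where free RNA gave expected means of 202 and 203 CPM. Insr had a median of 483 CPM in adipocyte-like (420.4 to 660.1), 369 in endothelial-like (273 to 613), 354 in macrophage-like (245 to 432) and 199.7 CPM in progenitor-like nuclei (170.3 to 245), against 30.6 to 36.4 CPM expected in the last 3. Foxo1, which switches on genes of fasting, had medians of 516 CPM in adipocyte-like nuclei (321 to 818) and 149 CPM in macrophage-like nuclei (76.9 to 191). Tbc1d4, the AKT substrate that holds GLUT4 vesicles back, did not separate progenitor-, adipocyte- and macrophage-like nuclei. Its medians there were 409 (300.2 to 565), 378 (297 to 598) and 369 CPM (256 to 510.5), in that order. In mesothelial-like and mural-like nuclei they were 181 and 219 CPM, and adipocyte-like nuclei of the same mouse read higher in 8 of 8 mice. Against endothelial-like nuclei they read higher in 7 of 7 mice. Pik3r1 had medians of 436 CPM in adipocyte-like nuclei (332 to 1662) and 474 CPM in mural-like nuclei (329.6 to 1220.4), and of 208 to 293 CPM in endothelial-, macrophage-, progenitor- and mesothelial-like nuclei. The mural-like mean of Pik3r1 was 614 CPM, where free RNA gave an expected mean of 308 CPM. Slc2a1, which encodes the basal transporter GLUT1, had medians of 9.29 CPM in endothelial-like, 4.98 in macrophage-like, 3.03 in adipocyte-like and 1.53 CPM in progenitor-like nuclei, and in 7 of 8 mice macrophage-like nuclei read above adipocyte-like ones. Because the classes were drawn from the same counts, these class levels are a description without a test.

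**Figure D1:**
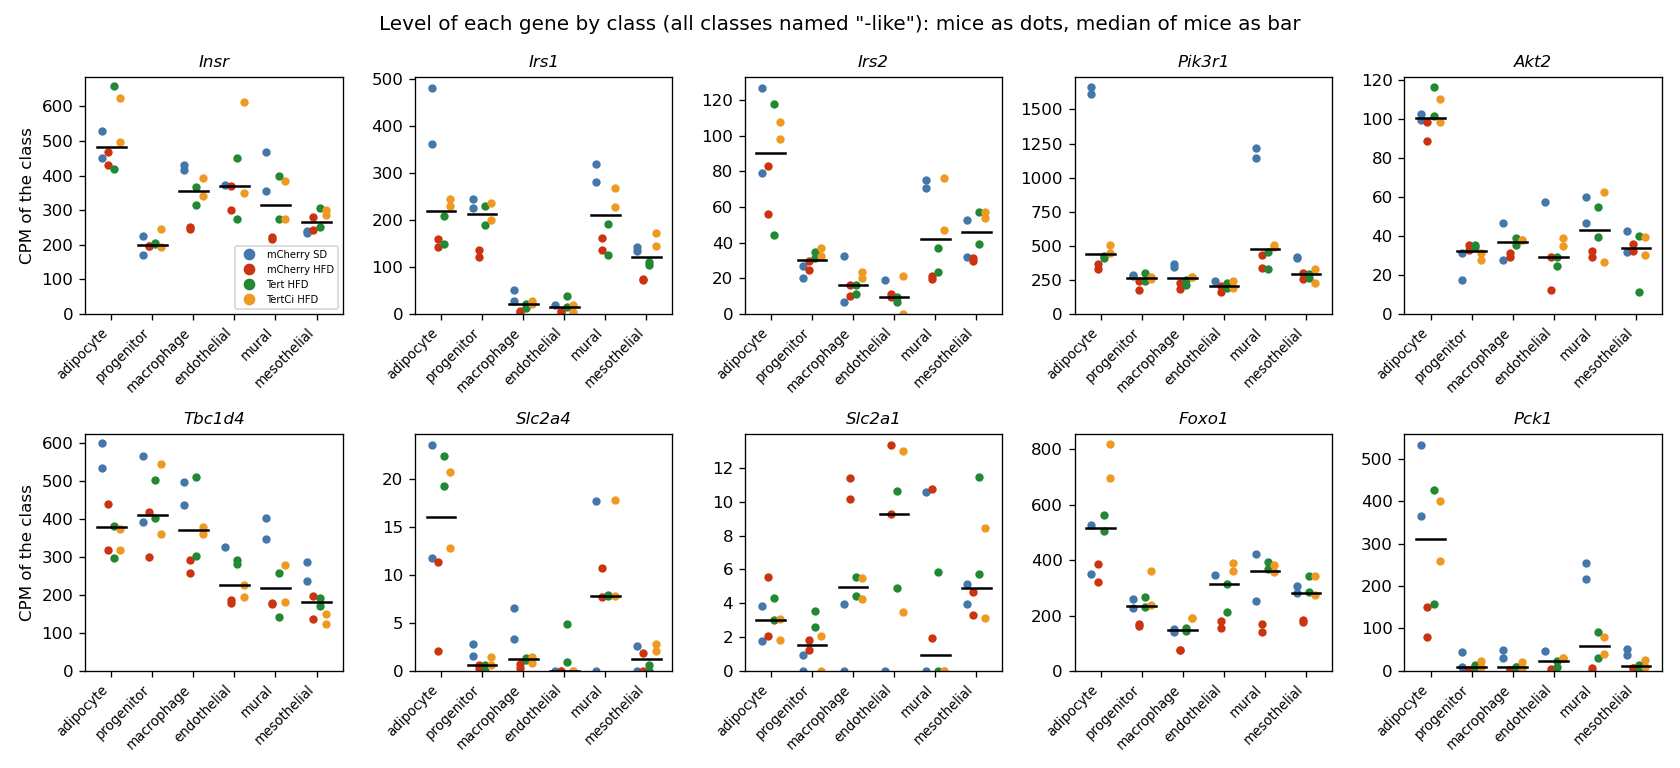
Level of each of the 10 genes in CPM (linear axis from 0, its own range per gene) by cell class, with 1 point per mouse coloured by group and the median of mice as a bar. Pck1 has medians of 312 CPM in adipocyte-like and 9.02 CPM in macrophage-like nuclei, while Tbc1d4 overlaps between adipocyte-, progenitor- and macrophage-like nuclei.

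Between mCherry SD and mCherry HFD, Pik3r1, Irs1 and Pck1 fell in adipocyte-like nuclei by 1.88 to 2.63 on the log2 scale. Tbc1d4 and Foxo1 fell by 0.99 and 0.73, and Insr, Irs2, Akt2, Slc2a4 and Slc2a1 did not pass the test. Of these, Insr, Irs2, Akt2 and Slc2a4 lay near the threshold and were called lower in 6, 7, 5 and 8 of 16 alternatives, and Slc2a1 was called in none of 15. The test was edgeR's quasi-likelihood fit on UMIs summed per mouse over 15385 genes, with Benjamini-Hochberg adjustment over all of them and a threshold of 0.05. All 10 genes passed its filter on low counts, and it called 5 lower and none higher, beside 10.6% of all genes called lower and 26.6% called in either direction. The class held 591 and 824 nuclei in mCherry SD, 249 and 88 in mCherry HFD, 479 and 877 in Tert HFD, and 1730 and 494 in TertCi HFD.

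Pik3r1 encodes the main regulatory subunit of PI3K, which stabilises the catalytic subunit and docks it to the adaptors. It stood at 1662 and 1614 CPM in mCherry SD, 367 and 332 CPM in mCherry HFD, 407 and 427 CPM in Tert HFD, and 446 and 506 CPM in TertCi HFD. Both standard-diet mice lay above all 6 mice on high fat diet, of whatever genotype. The log2 fold change from mCherry SD to mCherry HFD was -2.63 ± 0.21 (SE, edgeR's quasi-likelihood test, Benjamini-Hochberg adjusted p = 0.00013). Thinned to 1000 UMIs per nucleus, the share of adipocyte-like nuclei with a Pik3r1 UMI was 75.1% and 71.8% in mCherry SD and 26.1% and 17.0% in mCherry HFD, with exact 95% intervals of 71.4% to 78.6%, 68.6% to 74.9%, 20.8% to 32.0% and 9.87% to 26.6%. Unthinned, these shares were 97.5%, 98.7%, 95.2% and 85.2% at median depths of 3742, 5698, 17051 and 7641 UMIs. The share cannot be set against a class that lacks Pik3r1, since every class held it.

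Irs1 read 362 and 479 CPM in mCherry SD, 143 and 159.5 CPM in mCherry HFD, 208 and 149 CPM in Tert HFD, and 245 and 229.7 CPM in TertCi HFD. The standard-diet mice were again above all mice on high fat diet. Its log2 fold change with the diet was -1.88 ± 0.18 (edgeR, Benjamini-Hochberg adjusted p = 0.00029). Irs2 read 79.1 and 127 CPM in mCherry SD and 55.9 and 82.8 CPM in mCherry HFD, which overlapped, and did not pass (edgeR log2 fold change -1.01 ± 0.35, Benjamini-Hochberg adjusted p = 0.055). The receptor Insr read 451 and 528 against 429 and 469 CPM, also overlapping, with a log2 fold change of -0.52 ± 0.19 (edgeR, adjusted p = 0.061). Fold changes are scaled by trimmed means (TMM) and CPM by library totals, so the fold changes of genes with equal CPM can differ from 0.

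Downstream of PI3K, Akt2 read 99.4 and 102 CPM in mCherry SD against 98.4 and 89.0 CPM in mCherry HFD and did not pass (log2 fold change -0.50 ± 0.18, edgeR, Benjamini-Hochberg adjusted p = 0.058). Tbc1d4 read 598 and 532 against 317 and 438 CPM, without overlap, and fell by 0.99 ± 0.21 on the log2 scale (edgeR, Benjamini-Hochberg adjusted p = 0.0083). Slc2a4 was counted 33 times in mCherry SD rep144 and 59 and 2 times in mCherry HFD, and most often of these 4 mice in mCherry SD rep146. Its levels were 11.8 and 23.5 against 11.3 and 2.05 CPM. The log2 fold change of Slc2a4, -1.48 ± 0.51, did not pass (edgeR, Benjamini-Hochberg adjusted p = 0.055). Over the alternatives it ran from -3.49 without mCherry HFD rep128, which leaves the mouse with 2 UMIs, to -0.98 without mCherry SD rep146. Slc2a1 was counted 2 to 40 times per mouse in these nuclei and did not pass (log2 fold change 0.20 ± 0.56). How large a change could be detected at such counts was not tested.

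Foxo1 read 527 and 349.7 CPM in mCherry SD against 385 and 321 CPM in mCherry HFD. These values overlapped, and the call rested on the scaling and on single mice: the log2 fold change was -0.73 ± 0.24 with TMM (edgeR, Benjamini-Hochberg adjusted p = 0.046) and -0.30 with library totals (adjusted p = 0.36). The Foxo1 call was lost without rep144 (-0.38), rep128 (-0.85) or rep129 (-0.67). Pck1, a gene that insulin represses in liver and that marks mature fat cells, read 364 and 531 CPM in mCherry SD and 151 and 80.8 CPM in mCherry HFD. Its log2 fold change was -2.31 ± 0.39 (edgeR, Benjamini-Hochberg adjusted p = 0.0033). In nuclei thinned to 1000 UMIs, 30.3% and 40.2% held a Pck1 UMI in mCherry SD and 14.9% and 6.82% in mCherry HFD, with exact 95% intervals of 26.6% to 34.2%, 36.8% to 43.6%, 10.7% to 19.9% and 2.54% to 14.3%. In macrophage-like nuclei, which should lack Pck1, the thinned shares were 2.2% and 2.50% in mCherry SD and 0.189% and 0.363% in mCherry HFD. Unthinned, the Pck1 shares were 70.7%, 86.7%, 63.1% and 35.2% in adipocyte-like and 8.79%, 20.0%, 1.11% and 0.945% in macrophage-like nuclei, whose median depths were 3021, 4176, 6366 and 2608 UMIs.

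**Figure D2:**
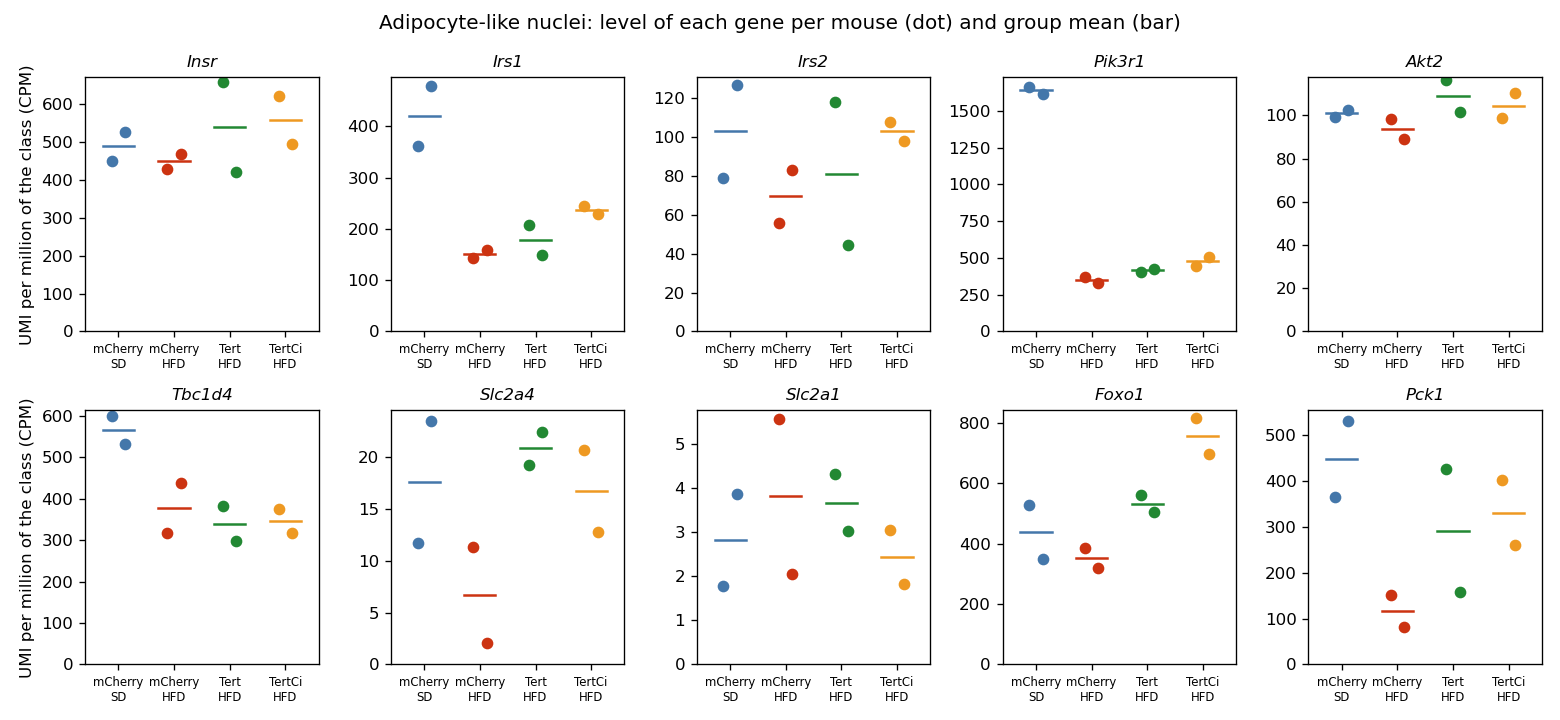
CPM of each gene in adipocyte-like nuclei (linear axis from 0, its own range per gene) by group, with 1 point per mouse and the group mean as a bar. Pik3r1 stands at 1614 to 1662 CPM in the 2 standard-diet mice and at 332 to 506 CPM in the 6 mice on high fat diet.

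The calls for Pik3r1, Irs1 and Pck1 held in all 16 alternatives of processing that were run for them, with log2 fold changes from -2.74 to -2.22, -2.07 to -1.47 and -2.85 to -1.91. Scaling matters for the smaller changes: with library totals the median of all genes moved from 0.05 to 0.46, and the genes called higher went from 2462 of 4099 to 3480 of 3975. Tbc1d4 fell out with library totals (-0.58) and without mCherry HFD rep128 (-0.76, adjusted p = 0.083). Transcripts of other cells moved with the diet in this class: the summed level of 10 progenitor markers was 825 and 827 CPM in mCherry SD and 1506 and 2703 CPM in mCherry HFD, against 529.6 to 647 CPM in Tert HFD and TertCi HFD. The 10 adipocyte markers summed to 8173 and 8980 CPM in mCherry SD, 6774 and 5088 CPM in mCherry HFD, 8605 and 6181 CPM in Tert HFD, and 7185 and 8120 CPM in TertCi HFD. The 10 macrophage markers summed to 1407 and 1052 CPM in mCherry SD, with 1 of them at 0 in rep144, and to 1260.0 and 1476 CPM in mCherry HFD, 1149 and 844 CPM in Tert HFD, and 667 and 756 CPM in TertCi HFD. The 8 endothelial markers summed to 32.4 and 35.2, 71.5 and 119, 47.0 and 58.6, and 31.4 and 26.4 CPM in the same order. The part of these transcripts in the fold changes was not tested.

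Adipocyte-like nuclei formed 4 clusters that were unevenly shared by the groups. Cluster 11 held 71.8% of the class in mCherry SD, cluster 12 59.1% in mCherry HFD, cluster 6 59.5% in TertCi HFD and cluster 20 38.2% in Tert HFD, all 518 nuclei of it from rep136. Cluster 12 had 58 to 275 nuclei in every mouse, and there Pik3r1 read 1415 and 1263 CPM in mCherry SD, 331 and 304 CPM in mCherry HFD, 386 and 408 CPM in Tert HFD, and 414 and 480.2 CPM in TertCi HFD. Within this 1 cluster the Pik3r1 log2 fold change was -2.31, against -2.63 over the class. Within cluster 12 Irs1 (-1.70), Pck1 (-2.16) and Tbc1d4 (-0.85) also stayed past the threshold, beside 7.92% of all genes called lower there, while Foxo1 did not (-0.39, edgeR, Benjamini-Hochberg adjusted p = 0.33). Since clusters were drawn from the same counts, these values are a check of makeup and not an independent test.

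**Figure D3:**
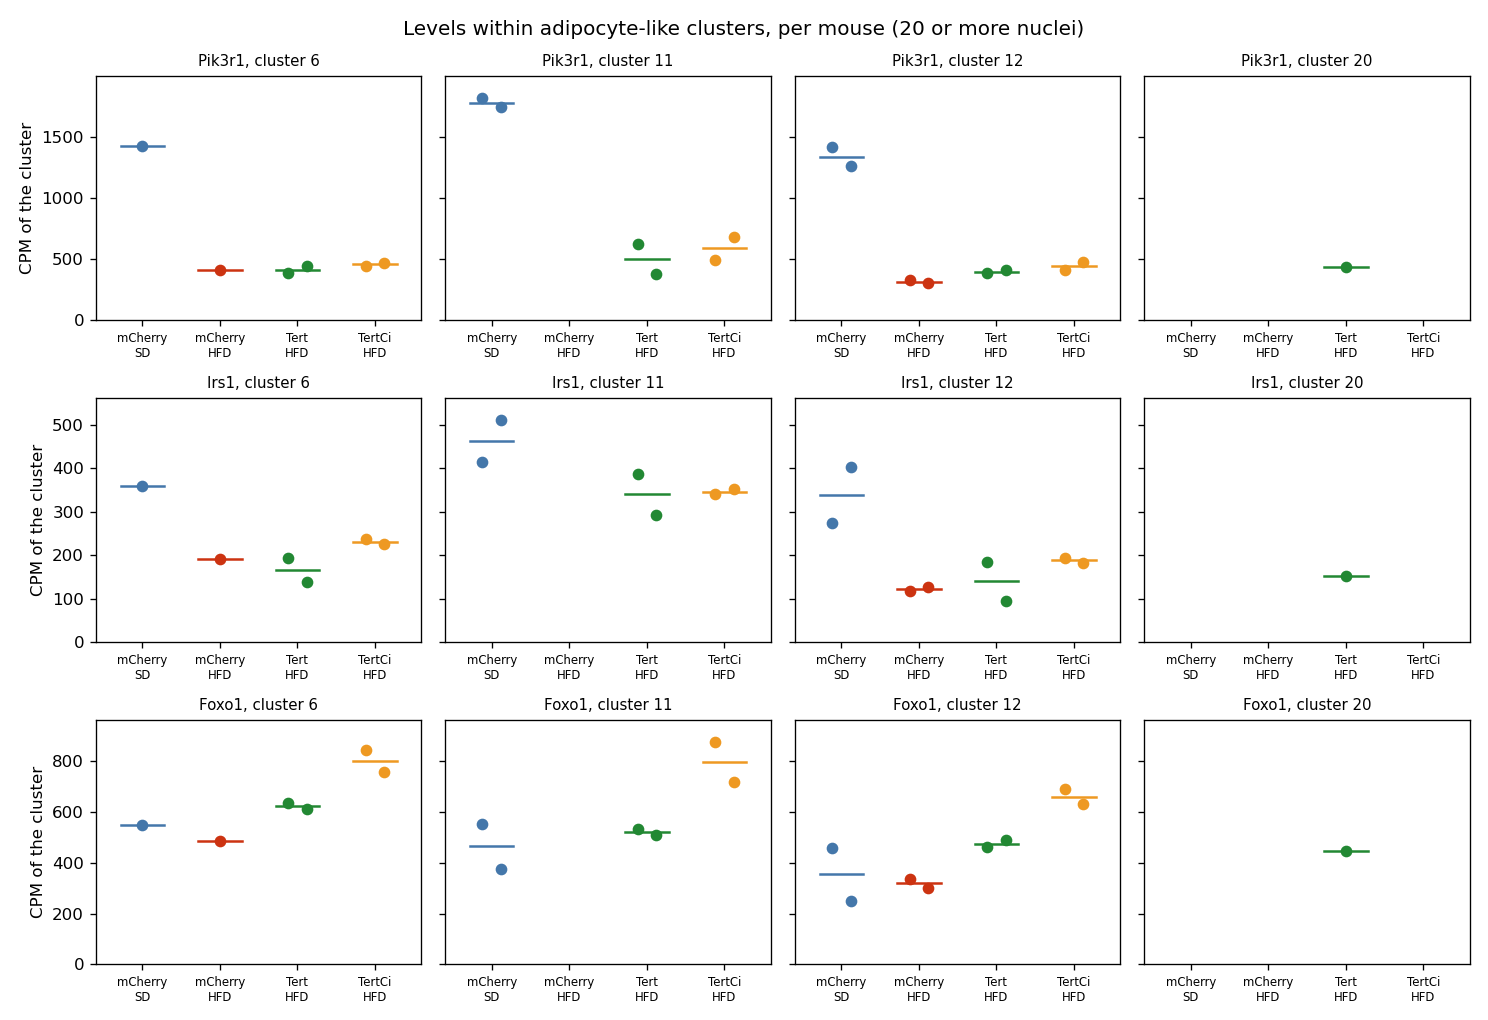
CPM of Pik3r1, Irs1 and Foxo1 in adipocyte-like clusters 6, 11, 12 and 20, on a linear axis from 0, with 1 point per mouse that had at least 20 nuclei of the cluster and the group mean as a bar. In cluster 12 Pik3r1 is at 1263 to 1415 CPM in the standard-diet mice and at 304 to 480.2 CPM in the 6 mice on high fat diet.

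On high fat diet, the libraries labelled Tert and TertCi were each compared with mCherry HFD; both comparisons share those 2 control mice, as does the diet comparison. In adipocyte-like nuclei Foxo1 and Pck1 were called higher in Tert HFD, 2 of 10 genes beside 3.99% of all genes called higher and 10.9% called in either direction. In TertCi HFD 8 of 10 were called higher, beside 10.3% and 25.0%: Insr, Irs1, Irs2, Pik3r1, Akt2, Slc2a4, Foxo1 and Pck1. Tbc1d4 and Slc2a1 passed in neither. Without Tert HFD rep136, the library of fewest UMIs per nucleus, Pck1 still passed in Tert HFD (2.10, edgeR, Benjamini-Hochberg adjusted p = 0.012) and Foxo1 did not (0.93, adjusted p = 0.087). None of the 10 was lower in either comparison, beside 6.91% and 14.7% of all genes called lower in Tert HFD and TertCi HFD.

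Foxo1 did not overlap between the 3 groups on high fat diet. It read 385 and 321 CPM in mCherry HFD, 562 and 505 CPM in Tert HFD, and 818 and 699 CPM in TertCi HFD. The log2 fold changes were 0.96 ± 0.24 in Tert HFD and 1.62 ± 0.24 in TertCi HFD (edgeR, Benjamini-Hochberg adjusted p = 0.034 and 0.0023). Pck1 read 426 and 157 CPM in Tert HFD and 402 and 259.6 CPM in TertCi HFD, above the 151 and 80.8 CPM of mCherry HFD, and the mouse of rep136 lay close to the controls. Its log2 fold changes were 1.60 ± 0.38 and 1.99 ± 0.38 (edgeR, Benjamini-Hochberg adjusted p = 0.03 and 0.0065). With rep134 left out, the Pck1 value in Tert HFD was 0.95 and no longer passed (adjusted p = 0.10).

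The adaptors and PI3K gave smaller differences. Irs1 differed by 1.18 ± 0.18 in TertCi HFD (edgeR, Benjamini-Hochberg adjusted p = 0.0024) and by 0.60 ± 0.18 in Tert HFD, which did not pass (0.057). Pik3r1 differed by 0.97 ± 0.20 in TertCi HFD (edgeR, Benjamini-Hochberg adjusted p = 0.0088) and by 0.63 ± 0.20 in Tert HFD (0.071), while its CPM in both groups stayed far under the standard-diet mice. Insr differed by 0.83 ± 0.19 in TertCi HFD (edgeR, Benjamini-Hochberg adjusted p = 0.012); at 660.1 and 420.4 CPM in Tert HFD and 623 and 497 CPM in TertCi HFD, only the latter lay above both controls. Akt2 (0.67 ± 0.17, adjusted p = 0.021), Irs2 (1.13 ± 0.34, adjusted p = 0.038) and Slc2a4 (1.52 ± 0.50, adjusted p = 0.048) were near the threshold of the edgeR test with Benjamini-Hochberg adjustment. The Akt2 value ran from 0.14 to 0.82 over 16 alternatives and kept its call in 9. In cluster 12 Akt2 read 88.8 and 79.2 CPM in mCherry HFD and 78.9 and 93.3 CPM in TertCi HFD, which overlapped. Slc2a4 read 19.3 and 22.4 CPM in Tert HFD and 20.7 and 12.8 CPM in TertCi HFD, against 11.3 and 2.05 CPM in mCherry HFD, where the lower value was 2 UMIs. Without mCherry HFD rep128 the Slc2a4 log2 fold change was 3.54 in TertCi HFD and 3.67 in Tert HFD, and without rep129 it was 1.16 and 1.29.

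These calls depended on the 2 mCherry HFD mice and on the scaling to unequal degrees. In TertCi HFD, Foxo1, Irs1 and Pck1 passed in all 16 alternatives, with log2 fold changes from 1.09 to 1.74, 0.65 to 1.32 and 1.47 to 2.53. In Tert HFD both calls were lost without either mCherry HFD mouse: Foxo1 read 1.08 without rep128 and 0.90 without rep129, and Pck1 2.14 and 1.32. In TertCi HFD, Pik3r1 was lost without rep128 (1.03) or rep129 (0.97), Insr without rep128 (0.76) or rep138 (0.74), Irs2 without rep128 (0.82), rep129 (1.46), rep138 (1.13) or rep140 (1.20), Akt2 without rep128 (0.74), rep129 (0.67) or rep140 (0.60), and Slc2a4 without rep129 or without rep138 (1.19). With library totals the medians of all genes moved from -0.02 to -0.37 in Tert HFD and from -0.04 to -0.57 in TertCi HFD, and genes called higher went from 614 of 1677 to 154 of 1797 and from 1579 of 3844 to 382 of 4446. Under that scaling 3 of the 8 calls in TertCi HFD and neither in Tert HFD held. In cluster 12 alone, Insr, Irs1, Irs2, Pik3r1, Foxo1 and Pck1 passed in TertCi HFD, beside 7.52% of all genes called higher there, and Pck1 alone (1.59) in Tert HFD, beside 2.80%.

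Tert HFD and TertCi HFD were also set against each other. No member and none of 15385 genes passed in adipocyte-like nuclei with edgeR; 934 genes had an unadjusted p under 0.05, and DESeq2 called none of the 10 genes. The largest differences were Foxo1 (Tert minus TertCi -0.66 ± 0.23 on the log2 scale) and Irs1 (-0.58 ± 0.17), both with an adjusted p of 0.81. That 8 genes passed in TertCi HFD and 2 in Tert HFD is therefore not a difference shown between the genotypes.

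**Figure D4:**
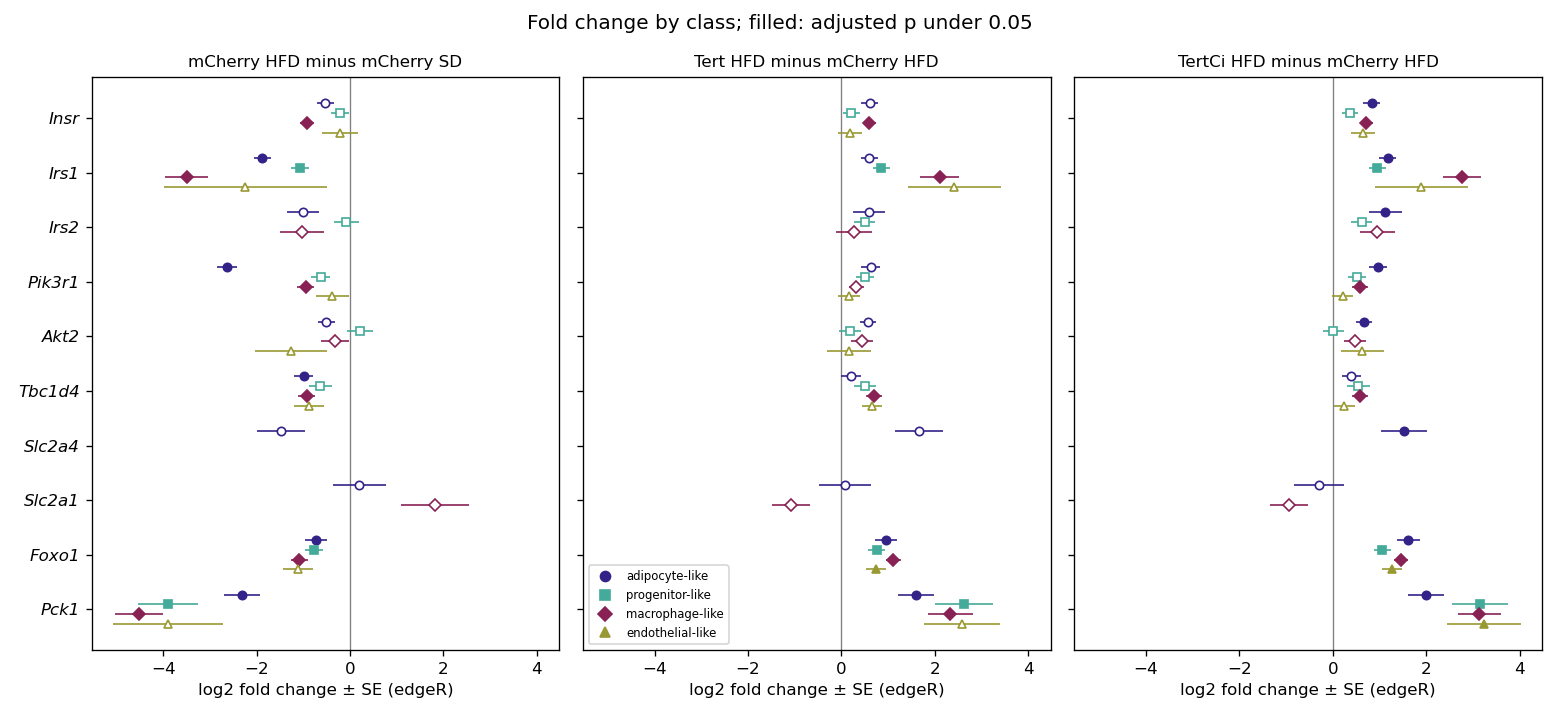
Log2 fold changes of the genes (edgeR, bars are ± 1 SE) in adipocyte-, progenitor-, macrophage- and endothelial-like nuclei for the diet, Tert and TertCi comparisons, filled where the Benjamini-Hochberg adjusted p is under 0.05. In adipocyte-like nuclei Pik3r1 is at -2.63 for the diet, and Foxo1 is at 0.96 and 1.62 for Tert and TertCi.

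Progenitor-like nuclei, the fibroblast-like stromal cells from which fat cells form, showed the same direction for Irs1 and Foxo1. Irs1 read 244 and 224 CPM in mCherry SD, 135.6 and 121 CPM in mCherry HFD, 189 and 229 CPM in Tert HFD, and 199 and 235 CPM in TertCi HFD, with at most 34.9 CPM expected from free RNA. The mCherry HFD mice were the lowest 2 of the 8. The log2 fold changes of Irs1 were -1.07 ± 0.19 with the diet, 0.85 ± 0.19 in Tert HFD and 0.96 ± 0.18 in TertCi HFD (edgeR, Benjamini-Hochberg adjusted p = 0.0052, 0.013 and 0.004). Foxo1 read 259 and 229, 169 and 162, 268 and 232, and 359 and 237 CPM in the same order. Its log2 fold changes were -0.77 ± 0.19, 0.76 ± 0.19 and 1.06 ± 0.18 (edgeR, Benjamini-Hochberg adjusted p = 0.024, 0.023 and 0.0025). In all, 3 of the 8 genes tested were called in each comparison, all lower with the diet and higher in both Tert genotypes. Of all genes, 11.9% were called with the diet (7.74% higher, 4.11% lower), 10.5% in Tert HFD (2.81% higher, 7.67% lower) and 19.3% in TertCi HFD (6.49% higher, 12.8% lower).

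The third called gene was Pck1, which in progenitor-like nuclei read 9.37 and 44.4, 1.95 and 3.07, 13.7 and 10.3, and 23.0 and 9.10 CPM. From free RNA 17.2 and 42.5, 1.65 and 2.37, 10.3 and 8.82, and 22.6 and 8.76 CPM were expected, and Pck1 lay above that level in 7 of 8 mice, by little in most. After free RNA was subtracted, Pck1 no longer held enough counts to be tested, Irs1 still passed in all 3 comparisons (-0.95, 0.85 and 0.87), and Foxo1 passed in TertCi HFD (0.90, edgeR, Benjamini-Hochberg adjusted p = 0.011) but not with the diet (-0.69) or in Tert HFD (0.65). Irs1 was lost in Tert HFD without mCherry HFD rep128 (0.95) or rep129 (0.80), and passed in all 16 alternatives with the diet and in TertCi HFD. Foxo1 was lost with the diet without rep144 (-0.65), rep146 (-0.95), rep128 (-0.79) or rep129 (-0.75), and in Tert HFD without rep128 (0.78) or rep129 (0.74). Over all 16 alternatives Foxo1 kept its call in 10 with the diet and in 12 in Tert HFD. Pck1 was lost with the diet without rep146 (-2.38) or rep128 (-3.40), in Tert HFD without rep128 (2.13), rep129 (2.80) or rep134 (2.48), and in TertCi HFD without rep128 (2.65) or rep138 (2.28). Insr, Irs2, Akt2, Pik3r1 and Tbc1d4 were not called in progenitor-like nuclei, and Slc2a4 and Slc2a1 had too few counts. Pik3r1, which fell by 2.63 on the log2 scale in adipocyte-like nuclei, read 287 and 279.5 CPM in mCherry SD and 244 and 177 CPM in mCherry HFD here (-0.63 ± 0.20, edgeR, Benjamini-Hochberg adjusted p = 0.062). Markers of other cells moved with the groups in progenitor-like nuclei too. The 10 macrophage markers summed to 225 and 156 CPM in mCherry SD, with 2 and 3 of them at 0, 428 and 488 CPM in mCherry HFD, 376 and 276 CPM in Tert HFD, and 259.6 and 254 CPM in TertCi HFD. The 10 adipocyte markers summed to 451 and 755, 213 and 243, 371 and 574, and 465 and 490.2 CPM in the same order, and the part of either in the fold changes was not tested. Cluster 10 held 49.0% of this class in mCherry HFD, and cluster 14 held 65.6% in mCherry SD, 56.4% in Tert HFD and 64.5% in TertCi HFD.

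Macrophage-like nuclei read the receptor and Foxo1 lower in mCherry HFD than in the other 3 groups. Insr read 432 and 417 CPM in mCherry SD, 245 and 252 CPM in mCherry HFD, 366 and 314 CPM in Tert HFD, and 392 and 342 CPM in TertCi HFD. Its log2 fold changes were -0.92 ± 0.14, 0.60 ± 0.14 and 0.72 ± 0.14 (edgeR, Benjamini-Hochberg adjusted p = 0.00089, 0.0096 and 0.0026). Foxo1 read 139 and 153, 76.9 and 77.2, 145 and 156, and 189.8 and 191 CPM, so that the mCherry HFD mice were lowest and the TertCi HFD mice highest. Its log2 fold changes were -1.08 ± 0.18, 1.11 ± 0.16 and 1.46 ± 0.16 (edgeR, Benjamini-Hochberg adjusted p = 0.0013, 0.00086 and 0.00012), and Foxo1 passed in all 16 alternatives of each comparison. Tbc1d4 (-0.92, 0.71 and 0.59) passed in all 3 comparisons, and Pik3r1 with the diet (-0.95) and in TertCi HFD (0.58). With Irs1 and Pck1, 6 of 9 genes tested were called with the diet, 5 in Tert HFD and 6 in TertCi HFD, each lower with the diet and higher in the Tert genotypes. Of all genes, 20.9% were called with the diet (11.4% higher, 9.51% lower), 19.7% in Tert HFD (7.86% higher, 11.9% lower) and 26.2% in TertCi HFD (10.8% higher, 15.3% lower).

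Part of this list sat at the free-RNA level. Macrophage-like Pck1 read 29.9 and 48.4 CPM in mCherry SD and 1.58 and 2.93 CPM in mCherry HFD, with 26.8 and 47.6, and 1.83 and 3.40 CPM expected. It read 9.69 and 8.34 CPM in Tert HFD and 20.8 and 7.61 CPM in TertCi HFD, with 10.7 and 7.73, and 22.9 and 8.46 CPM expected. Irs1 read 26.6 and 49.7 CPM in mCherry SD and 3.12 and 5.64 CPM in mCherry HFD, with 33.9 and 39.0, and 2.39 and 6.86 CPM expected. It read 12.9 and 20.1 CPM in Tert HFD and 27.3 and 20.3 CPM in TertCi HFD, with 12.5 and 15.6, and 19.1 and 14.03 CPM expected. After subtraction of free RNA, Insr (-0.99, 0.60 and 0.70), Foxo1 (-1.0, 1.01 and 1.3) and Tbc1d4 (-0.97, 0.73 and 0.59) still passed in each comparison, Pik3r1 passed with the diet (-0.66) and in TertCi HFD (0.58), and Irs1 passed in TertCi HFD alone (edgeR, Benjamini-Hochberg adjusted p = 0.028). The subtracted Irs1 level of mCherry HFD is near 0, so no fold is given for it. Irs1 was also lost with the diet without rep146 (-2.96) and in Tert HFD without rep128 (1.62), and Pck1 in Tert HFD without rep128 (1.76) and in TertCi HFD without rep138 (2.10). Insr was lost in Tert HFD without rep128 (0.58) or rep129 (0.62) and in TertCi HFD without rep138 (0.63), and Tbc1d4 was lost with the diet without rep146 (-0.90) and in Tert HFD without rep128 (0.63) or rep134 (0.41). In TertCi HFD, Tbc1d4 was lost without rep128 (0.51), rep129 (0.69), rep138 (0.57) or rep140 (0.59), and Pik3r1 without rep129 (0.45), rep138 (0.59) or rep140 (0.54). Over all 16 alternatives, those of processing included, Tbc1d4 kept its call in 12 in Tert HFD and 10 in TertCi HFD. Pik3r1 kept its call in 12 in TertCi HFD. The makeup of the class moved with the groups as well: cluster 21 held 78.9%, 43.8% and 53.2% of it in mCherry SD, Tert HFD and TertCi HFD and 1.08% in mCherry HFD, where clusters 23, 26 and 27 held 41.8%, 26.5% and 17.6%. Pooled over all mice, Insr read 427 CPM in cluster 21 and 271, 173 and 342 CPM in clusters 23, 26 and 27. Foxo1 read 178 against 81.2, 61.3 and 92.9 CPM, and Tbc1d4 623 against 191, 149 and 610 CPM. The class values thus mix makeup with the level within clusters, and the part of makeup in the fold changes was not tested. The 10 macrophage markers summed to 9853 and 10821 CPM in mCherry SD, 4781 and 4928 CPM in mCherry HFD, 9395 and 4742 CPM in Tert HFD, and 8918 and 6692 CPM in TertCi HFD, and the part of this in the fold changes was not tested.

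Slc2a1 differed from the other genes tested in macrophage-like nuclei in the sign of its diet value. It read 0 and 3.92 CPM in mCherry SD, 11.4 and 10.2 CPM in mCherry HFD, 4.45 and 5.56 CPM in Tert HFD, and 5.51 and 4.23 CPM in TertCi HFD, with at most 1.31 CPM expected from free RNA. The mCherry HFD mice were above the other 6, but the difference did not pass (log2 fold change 1.83 ± 0.73, edgeR, Benjamini-Hochberg adjusted p = 0.093), nor did that of Tert HFD (-1.07 ± 0.41) or TertCi HFD (-0.94 ± 0.41). With 1 standard-diet mouse at 0, the size of the diet value is loose. Over 16 alternatives it ran from 1.32 to 9.10 and was called in 0.

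**Figure D5:**
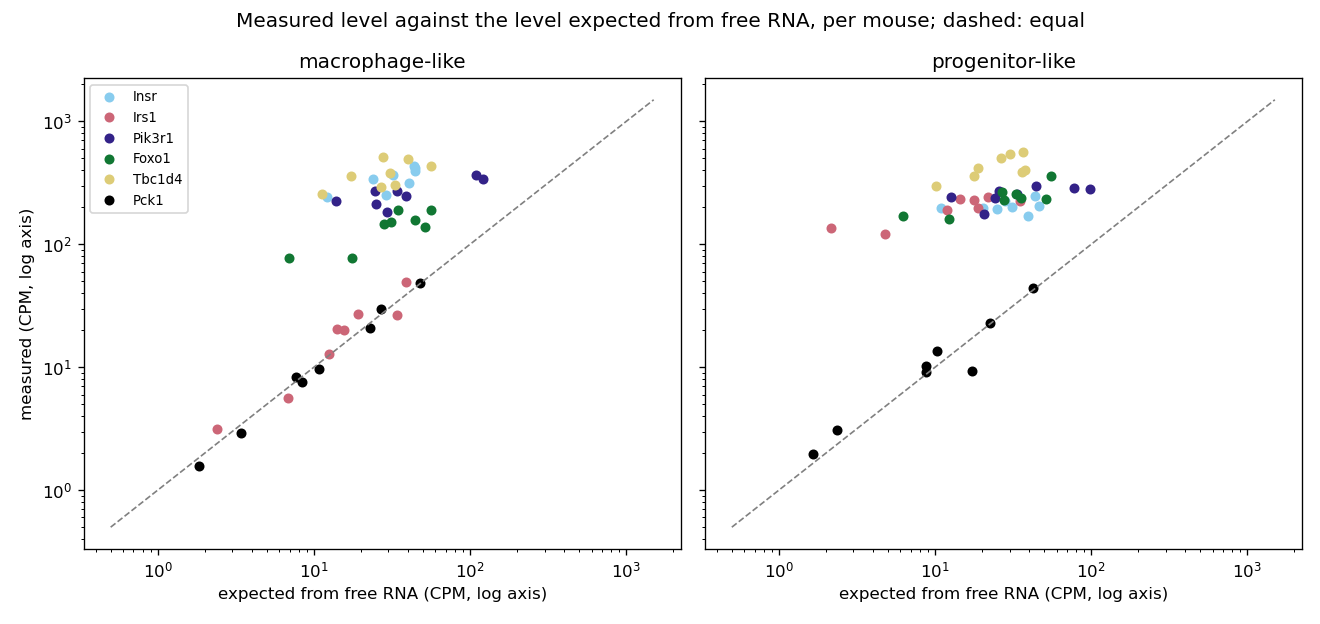
Level of Insr, Irs1, Pik3r1, Foxo1, Tbc1d4 and Pck1 in macrophage-like and progenitor-like nuclei against the level expected from free RNA (both CPM, log axes), 1 point per mouse, with equality as a dashed line. Pck1 lies along the line in macrophage-like nuclei, at 1.58 to 48.4 CPM observed against 1.83 to 47.6 CPM expected, while Insr, Foxo1 and Tbc1d4 lie above it.

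Endothelial-like nuclei were few, with 50 to 204 per mouse on high fat diet and 22 in mCherry SD rep146. The mouse of rep144 had 9 and was left out, so the diet comparison had 1 mouse on standard diet, assumed to vary like the other groups. No member was called with the diet (edgeR and DESeq2 both 0, beside 2.74% of all genes, 1.58% higher and 1.16% lower; 1247 of 7345 genes had an unadjusted p under 0.05). Foxo1 read 345 CPM in mCherry SD, 153 and 179.7 CPM in mCherry HFD, 313 and 215 CPM in Tert HFD, and 391 and 359.6 CPM in TertCi HFD. It was called higher in Tert HFD (0.74 ± 0.22, edgeR, Benjamini-Hochberg adjusted p = 0.041), beside 9.31% of all genes called, 3.35% higher and 5.96% lower, and in TertCi HFD (1.27 ± 0.22, adjusted p = 0.00076). Pck1 was the other gene called higher in TertCi HFD (3.24 ± 0.79, edgeR, Benjamini-Hochberg adjusted p = 0.0091), beside 17.3% of all genes called, 7.47% higher and 9.80% lower. Pck1 read 47.9 CPM in mCherry SD, 3.89 and 0 CPM in mCherry HFD, 24.2 and 9.75 CPM in Tert HFD, and 29.2 and 30.3 CPM in TertCi HFD, on 0 to 25 UMIs per mouse. From free RNA 43.5, 2.83 and 3.00, 13.4 and 11.9, and 23.1 and 7.98 CPM were expected. The Pck1 call in TertCi HFD was lost with DESeq2 (3.46, adjusted p = 0.065), without rep138 (3.27) and without rep128, which leaves a control with 0 UMIs, and Pck1 fell under the filter after subtraction of free RNA. The Foxo1 call in Tert HFD was lost with DESeq2 (0.71), after subtraction of free RNA (0.63) and without rep128 (0.62), rep129 (0.88) or rep134 (0.50), and that in TertCi HFD without rep128 (1.15). Insr, at 273 to 613 CPM, was called in no comparison. Markers of other cells moved with the groups here too. The 10 adipocyte markers summed to 1207 and 1090 CPM in mCherry HFD, 1465 and 1302 CPM in Tert HFD, and 1744 and 1703 CPM in TertCi HFD, and the 8 endothelial markers to 3080 and 3581, 4331 and 3759, and 5706 and 4636 CPM. Macrophage markers summed to 2502 to 4770 CPM, highest in mCherry SD rep146. In that mouse they summed above the endothelial markers, at 3161 CPM, with adipocyte markers at 1504 CPM. The part of these markers in the fold changes was not tested.

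The size of the diet change differed between classes for Pik3r1. In a fit of both classes with the mouse as a block, the log2 fold change of Pik3r1 in adipocyte-like nuclei differed from that in macrophage-like nuclei by -1.76 ± 0.22 and from that in progenitor-like nuclei by -1.93 ± 0.20 (edgeR, Benjamini-Hochberg adjusted p = 1.4e-06 and 5.7e-06). With free RNA subtracted from the second class the differences were -2.07 ± 0.24 and -2.35 ± 0.22 (adjusted p = 0.00032 and 1.4e-05), beside 4.08% and 5.05% of all genes. Of 30 differences between adipocyte- and macrophage-like nuclei, 10 genes in 3 comparisons, 6 passed as deposited, beside 8.31%, 6.13% and 13.2% of all genes for diet, Tert and TertCi, and 2 passed after subtraction. Of 30 against progenitor-like nuclei 2 passed, both with the diet, beside 5.82%, 4.14% and 7.76% of all genes, and 1 after subtraction; a count of 2 in 30 lies near that share.

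Over all called nuclei of a mouse, which mixes the level per nucleus with the number of nuclei of each class, 9 of the 10 genes were lower in mCherry HFD than in mCherry SD, beside 18.5% of all genes called lower and 40.7% called. Fewer adipocyte nuclei and less RNA per adipocyte nucleus cannot be told apart in such sums: adipocyte-like nuclei were 23.2% and 27.5% of nuclei in mCherry SD, 3.35% and 3.06% in mCherry HFD, 13.7% and 27.5% in Tert HFD, and 30.3% and 25.0% in TertCi HFD. These shares leave out the mixed clusters, several of which scored highest for adipocyte markers. Mixed clusters held 55.7% and 51.7% of nuclei in mCherry SD and 17.2% and 16.2% in mCherry HFD. They held 26.7% and 17.5% in Tert HFD, and 20.0% and 32.6% in TertCi HFD. Slc2a4 read 9.64 and 18.1 CPM in mCherry SD and 1.48 and 1.13 CPM in mCherry HFD, a log2 fold change of -3.80 ± 0.44; adipocyte-like nuclei alone gave -1.48, or -3.49 without mCherry HFD rep128. Pck1 (-4.59 ± 0.33) and Irs1 (-2.84 ± 0.17) were also further from 0 than within adipocyte-like nuclei, while Pik3r1 read -2.69 ± 0.22 over all nuclei and -2.63 within the class. The same 9 genes were called higher than in mCherry HFD in each Tert genotype, beside 10.9% of all genes called higher and 21.8% called in Tert HFD, and 16.1% and 35.5% in TertCi HFD, and none differed between these groups (edgeR 0 genes of 21101, 1898 with an unadjusted p under 0.05; DESeq2 0 of the 10). Of the calls in Tert HFD, Insr (0.86), Irs2 (0.99), Pik3r1 (0.92), Tbc1d4 (0.60) and Foxo1 (1.54) were lost without mCherry HFD rep128, Pik3r1 (0.83) and Tbc1d4 (0.91) without rep129, Irs2 (0.95) without rep134, and Pik3r1 (0.56) and Tbc1d4 (0.75) without rep136. In TertCi HFD Tbc1d4 was lost without rep128 (0.64) or rep138 (0.70). Slc2a1 was called in no comparison (0.65 ± 0.25 with the diet, edgeR, Benjamini-Hochberg adjusted p = 0.076).

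The rest of the pathway was counted in 6 lists of 96 genes, from receptor partners to pyruvate handling. In adipocyte-like nuclei 93 were tested. With the diet 21 were called lower and 3 higher, beside 10.6% and 16.0% of all genes, with a median log2 fold change of -0.30 against 0.05 for all genes. In Tert HFD 10 were higher and 1 lower, beside 3.99% and 6.91% (median 0.21 against -0.02), and in TertCi HFD 23 were higher and 7 lower, beside 10.3% and 14.7% (median 0.22 against -0.04). By list, genes called lower with the diet were 2 of 16 receptor partners, 3 of 19 PI3K and AKT genes, 5 of 13 AKT targets, 5 of 17 GLUT4 traffic genes, 3 of 12 genes of glucose entry and 3 of 16 of glycerol and pyruvate handling. The 3 genes called higher with the diet were 1 each in GLUT4 traffic, glucose entry and glycerol and pyruvate handling. In TertCi HFD genes called higher in the 6 lists, in that order, were 4, 3, 3, 6, 4 and 3 and genes called lower 3, 0, 0, 2, 1 and 1, with the receptor partners called in both directions. In Tert HFD genes called higher were 0, 0, 3, 3, 2 and 2, and 1 gene of glucose entry was called lower. Counts such as 2 of 16 receptor partners with the diet lie near the share of all genes.

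Among the named genes of these lists, a glucose transporter gene changed in all 3 comparisons. Slc2a3, which encodes the transporter GLUT3, read 188 and 139.6 CPM in mCherry SD, 19.4 and 14.3 CPM in mCherry HFD, 47.2 and 66.3 CPM in Tert HFD, and 124 and 52.6 CPM in TertCi HFD. Its log2 fold changes were -3.62 ± 0.44, 2.06 ± 0.44 and 2.84 ± 0.43 (edgeR, Benjamini-Hochberg adjusted p = 0.0008, 0.021 and 0.0025). Eif4ebp1, a translation brake under mTOR (-2.05 ± 0.23), and Slc2a13, a sugar alcohol carrier (-1.90 ± 0.32), were also called lower with the diet. The hexokinase gene Hk3 (2.51 ± 0.38) and Pdk4, which shuts pyruvate dehydrogenase (2.37 ± 0.71), were called higher with it. Hk3 is a gene of myeloid cells, at a mean of 67.7 CPM over mice in macrophage-like nuclei and at 4.63 and 3.33 CPM in mCherry SD and 25.9 and 33.8 CPM in mCherry HFD adipocyte-like nuclei, and the part of macrophage RNA in its change was not tested.

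In Tert HFD, Slc2a3, the glucose-sensing factor Mlxipl (1.60 ± 0.26), pyruvate carboxylase Pcx (1.27 ± 0.26), Gpd2 (1.13 ± 0.22) and Eif4ebp1 (1.05 ± 0.24) were called higher and Hk3 (-1.72 ± 0.36) lower. In TertCi HFD the largest were Slc2a3, Slc2a12 (2.03 ± 0.49) and the antilipolytic phosphodiesterase Pde3b (1.76 ± 0.28) higher, and Socs3 (-3.14 ± 0.91), an inhibitor of insulin receptor signalling, Hk3 (-2.74 ± 0.37) and Enpp1 (-1.73 ± 0.54) lower. Socs3 rested on at most 3.07 CPM in any mouse. Mlxipl read 222 and 137 CPM in mCherry HFD, 388 and 458 CPM in Tert HFD, and 296 and 330.5 CPM in TertCi HFD. Pde3b read 771 and 614, 1545 and 745, and 1908 and 1369 CPM in these groups, with Tert HFD rep136 among the controls.

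The same lists were counted in the other classes. Progenitor-like nuclei had 1 gene higher and 9 lower of 88 with the diet (7.74% and 4.11% of all genes), 5 and 0 in Tert HFD (2.81% and 7.67%), and 13 and 5 in TertCi HFD (6.49% and 12.8%). Igf1r, the receptor of insulin-like growth factor, singled out after its values were seen, was called in all 3 there (-0.64 ± 0.14, 0.81 ± 0.14 and 1.00 ± 0.14). Macrophage-like nuclei had 5 higher and 12 lower of 85 with the diet (11.4% and 9.51% of all genes), 9 and 2 in Tert HFD (7.86% and 11.9%), and 14 and 8 in TertCi HFD (10.8% and 15.3%). Igf1r, which stood at 16.3 times its free-RNA level there, was again called in all 3 (-1.38 ± 0.19, 1.04 ± 0.18 and 1.25 ± 0.18). In adipocyte-like nuclei none of the 16 receptor partners, Igf1r among them, was called in Tert HFD. Among the largest macrophage values, Pcx stood at 1.02 times its free-RNA level and Mlxipl at 1.66 times. Endothelial-like nuclei had 1 higher and 3 lower of 61 with the diet (1.58% and 1.16% of all genes), 3 and 0 in Tert HFD (3.35% and 5.96%), and 6 and 3 in TertCi HFD (7.47% and 9.80%).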

How the data were processed

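Single-nucleus RNA was read from frozen visceral fat of 8 mice, 2 per group; mice were processed in pairs in random order, per the labels' protocols, and which mice shared a pair was not given. The authors deposited unfiltered matrices of UMI counts per gene and barcode; the file headers name Cell Ranger 7.1.0, whereas the submitters' processing notes name Cell Ranger 5.0.1, bcl2fastq 2.20.0 and build mm39, and intron counting is not given in the sources used here. Barcodes with at least 500 UMIs, 0.1 of the 99th percentile of the top 5000 barcodes, 300 genes and at most 5% mitochondrial UMIs were kept as nuclei. The automatic doublet caller marked almost none, so the highest-scoring 0.8% per 1000 nuclei were removed. Clustering used scanpy 1.11.5 and leidenalg 0.10.2 (2000 variable genes, 30 components, 15 neighbours, resolution 1), and classes were named by marker genes. UMIs were summed per mouse and class (at least 20 nuclei) and fitted over all 4 groups with edgeR 4.0.16 in R 4.3.3 (quasi-likelihood, TMM, filter on low counts, Benjamini-Hochberg threshold 0.05), with DESeq2 1.42.0 as an alternative; the script was tested on simulated data. Replicates were separate mice. The p-values rest on a spread between mice that all 4 groups share in 1 fit, not on the 2 mice of a group alone. The SE of an edgeR log2 fold change was derived from the test, as its absolute value divided by the square root of the F statistic. The 2 mice of Tert HFD differed most, with a chi-square 135 times its degrees of freedom against 16.6 to 35.8 times in the other groups. Binomial intervals (exact, 95%) cover counting error only. The 10 genes and the pathway lists were chosen with earlier results of these data known. All 10 genes are named; of the lists, up to 6 called genes with the largest change per class and comparison were eligible to be named. Some of these genes are not reported here. Further alternatives were other filters, cell sets, free-RNA ranges and leaving out each mouse.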

Additional observations from a re-analysis of the deposited data

Results flagged for a closer look

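The change of 3 genes under the same comparison differed between cell classes of the same mice, by the test of the difference in a fit with the mouse as a block (edgeR, Benjamini-Hochberg adjusted). With the diet, the log2 fold change in adipocyte-like nuclei minus that in macrophage-like nuclei was -1.76 for Pik3r1, 1.54 for Irs1 and 2.27 for Pck1. Against progenitor-like nuclei it was -1.93 for Pik3r1 and 1.81 for Pck1. In the Tert comparison the difference between adipocyte-like and macrophage-like nuclei was -1.40 for Irs1, and in the TertCi comparison it was -1.54 for Irs1 and -1.18 for Pck1. After subtraction of free RNA from the second class, Pik3r1 (-2.07 and -2.35) still passed, as did Irs1 in the TertCi comparison, for which no size is given since its subtracted macrophage-like level in mCherry HFD is near 0. Differences passed for 8.31%, 6.13% and 13.2% of all genes against macrophage-like nuclei, for diet, Tert and TertCi, and for 5.82%, 4.14% and 7.76% against progenitor-like nuclei, where 2 of 30 lies near that share. Mean Pck1 was 16.1 CPM in macrophage-like and 14.4 CPM in progenitor-like nuclei where free RNA gave 16.2 and 14.3 CPM, and mean Irs1 in macrophage-like nuclei was 20.7 CPM where it gave 17.9 CPM.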

How the results depend on the processing

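No paired analysis was possible because the groups share no replicate numbers. Over the single-gene values, 1005 alternatives kept direction and side of the threshold, 97 lost the call, 36 gained one and 13 changed sign. Of the counts of called genes, 56 did not stay within 1.5 times. Another 257 alternatives were held the same. These include free-RNA levels at other UMI ranges, judged by their SD between mice, and counts that stayed at 0 in Tert against TertCi. The cause was not tested. Counts by setting are given next without the share of all genes called under the same setting, which can move as well. A rise or fall in them is therefore not shown to be particular to the insulin and glucose genes. In adipocyte-like nuclei the genes called with the diet (5) became 9 with no filter, 8 with only the groups compared, 9 with doublets kept and 3 with library totals. In Tert HFD (2) they became 8 with no filter, 0 with mixed clusters added, 0 with library totals and 1 in 1 cluster, and in TertCi HFD (8) 5 with mixed clusters and 3 with library totals. In progenitor-like nuclei (3 each) the diet gave 5 with no filter or mixed clusters and 1 after free-RNA subtraction, Tert 5 with no filter and 1 after subtraction, and TertCi 5 with no filter, 7 with only the groups compared and 6 with mixed clusters. In macrophage-like nuclei Tert (5) gave 3 after subtraction. In endothelial-like nuclei the diet (0) gave 1 with no filter, 1 with only the groups compared and 4 with mixed clusters. Tert there (1) gave 0 with DESeq2, library totals or subtraction, 4 with no filter or mixed clusters and 2 with only the groups compared, and TertCi (2) gave 1 with DESeq2 or subtraction. Over all nuclei Tert against TertCi (0) gave 4 with no filter. Leaving out 1 mouse at a time gave 4 to 9, 0 to 2 and 4 to 8 genes for diet, Tert and TertCi in adipocyte-like nuclei, 1 to 4, 0 to 3 and 2 to 5 in progenitor-like, 4 to 7, 1 to 5 and 2 to 7 in macrophage-like, 0 to 0, 0 to 3 and 0 to 3 in endothelial-like, and 9 to 9, 4 to 9 and 8 to 9 over all nuclei. Among the single-gene values tallied above, signs changed only for values not called, all in adipocyte-like nuclei. In progenitor-, macrophage- and endothelial-like nuclei that tally held only called genes and macrophage-like Slc2a1. Sign changes of other uncalled genes there were not looked for. Slc2a1 with the diet read -0.17 with mixed clusters and -0.90 to 0.83 on leaving out 1 mouse, negative without mCherry SD rep144 (-0.18) or mCherry HFD rep128. In Tert HFD Slc2a1 read -0.12 with doublets kept, -0.25 with library totals and -0.18 to 1.18 on leaving out 1 mouse, negative without rep129 or rep134, and in TertCi HFD 0.056 with mixed clusters and -0.69 to 0.81 on leaving out 1 mouse, positive without rep128. Irs2 in Tert HFD read -0.042 to 1.07, negative without rep134. Tbc1d4 read -0.15 with library totals and -0.025 to 0.51 on leaving out 1 mouse in Tert HFD, negative without rep128, and -0.13 with library totals in TertCi HFD. Library totals, free-RNA subtraction, 1 adipocyte cluster, the range of 50 to 500 UMIs and the fit of class differences were chosen after seeing the data. Counts of Slc2a1 and Slc2a4 limit what can be read for both glucose transporters.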

Other observations

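Of the 37 clusters, 1 stayed unnamed: 37 nuclei, 86.5% of them from mCherry HFD rep128, led by Alb, Abcc2 and Cps1. Pck1 stood at 601 CPM in it (173 UMIs), and Slc2a4 was not counted. In macrophage-like nuclei Slc2a1 was uneven between clusters, at 0.245 CPM (2 UMIs) in cluster 21, 20.1 CPM (197 UMIs) in cluster 26 and 16.9 CPM (34 UMIs) in cluster 25. In mCherry HFD these clusters held 1.08%, 26.5% and 0.767% of the class, in that order. Cluster 25 held 25.3% of it in Tert HFD and 15.1% in TertCi HFD, and 55.5% of its nuclei came from Tert HFD rep136. The part of makeup in the Slc2a1 values was not tested.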
